A study of Homo sapiens with 18 samples.

Results

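The genes described here are 32 of the 3074 genes in the deposited expression table of SJSA-1, an established line of human osteosarcoma cells in which the MDM2 gene is amplified. They were chosen from their own measured values. A gene was taken when its mean normalized count with neocarzinostatin (NCS) was at least 3 times its mean with vehicle, its mean with the MDM2 inhibitor MI-1061 was under 1.5 times the vehicle mean, its mean with NCS and MI-1061 together was under 3 times its mean with NCS, and the largest of these 4 means was at least 50. A normalized count is a read count divided by a size factor for its library. CD68 and CXCL3 also met these limits but were left out by name, together with several gene families. Of the 379 genes in the table whose NCS mean was at least 3 times the DMSO mean, 340 had an MI-1061 mean of at least 1.5 times the DMSO mean. Of all 3074 genes in the table, 2028 (66%) had such an MI-1061 mean.

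Cells were kept for 72 h with DMSO or with 1 µg/mL NCS, renewed after 48 h. In the last 24 h they also received MI-1061 at 1 µM, MD-224 at 1 µM, or DMSO. The 6 groups were therefore DMSO, MI-1061, MD-224, NCS, NCS with MI-1061, and NCS with MD-224, with 3 libraries of poly(A)-enriched RNA each. The same single cell line was used in all groups, and the labels do not say that replicates came from separate cultures, so p-values measure the spread between these libraries, which may be technical. MI-1061 blocks the contact of MDM2 with p53, and MD-224 brings MDM2 to the proteasome. Every gene in the table had a mean with NCS and MI-1061 of at least 1.75 times its DMSO mean, so genes that NCS raised and the inhibitor brought back to the vehicle level are not analysed here.

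NCS is an enediyne that cuts DNA strands. Cells that carry unrepaired breaks activate p53, which switches on arrest and death genes, and in parallel the kinase ATM can activate NF-kB, which switches on receptors, adaptors and secreted proteins. MDM2 is the ubiquitin ligase that keeps p53 low, so an MDM2 inhibitor raises p53 without cutting DNA.

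The normalized counts of the listed genes summed to between 4594460 and 17252589 per library, and these sums are not depths because the table is a selection. Whole reads were recovered in 13 libraries. There the lowest value of any of the 32 genes was 2 reads (BEST3 in MD-224 replicate 2), and with NCS alone the lowest was 62 reads (also BEST3). Of the osteoblast lineage markers 5 of 16 were in the table (COL1A2, SPARC, SPP1, MSX2 and BMP2). Their summed level was 71010 to 89120 with DMSO, 87620 to 140400 with MI-1061 and 145600 to 172700 with NCS. It was 109300 to 152800 with MD-224, 171400 to 197100 with NCS and MI-1061, and 169400 to 201200 with NCS and MD-224. Of 14 endothelial markers 2 were in the table (VWF and KDR). They summed to 150 to 232 with DMSO, 1943 to 3235 with MI-1061 and 212 to 315 with NCS. Of 16 epithelial markers 2 (CLDN4 and GRHL1) summed to 257 to 371, 473 to 1027 and 293 to 349 in these groups. Of 26 haematopoietic markers 5 were in the table (ITGAM, CD68, CD163, LAPTM5 and TREM1). Their summed level was 446 to 1124 with DMSO, 2576 to 3107 with MI-1061, 818 to 1122 with MD-224, 2461 to 2646 with NCS, 5258 to 5403 with NCS and MI-1061, and 3671 to 4901 with NCS and MD-224. It was thus higher with NCS, as the 32 genes were, and also with MI-1061, where the 32 genes had a median of 1.02 times DMSO. Its part in the results was not tested. Of these haematopoietic markers, CD68 alone had a mean of 620 with DMSO and 3446 with NCS and MD-224. CD68 met the limits above, so its MI-1061 mean was under 1.5 times DMSO. The rise of the sum with MI-1061 thus lay mainly in other markers of the 5. PTPRC and SPI1, which define that lineage, are not analysed here. The libraries came from whole cultures, so a larger share of cells with a transcript and more of it per cell cannot be told apart.

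Of the 32 genes, 31 were protein-coding and 1, ABCC6P1, was a transcribed pseudogene. They lay on 15 chromosomes, at most 4 on any one, and the closest neighbours, ANGPTL4 and ACP5 on chromosome 19, were 3.2 Mb apart. In the GENCODE annotation 19 shared no exon base with another gene. Among the other 13, HSD3B7 shared 1613 exon bases and FAM198B 1040 with a gene on the opposite strand, FAP shared 638 with one on the opposite strand, and TMEM63C shared 638 with CIPC and another gene on its own strand. C15orf48 shared 456, or 32.5% of its exon bases, with genes on both strands, MIR147B among them, and CBLN3 shared 315 with KHNYN. Strand use in counting is not given in the sources used here, so reads of such partners cannot be told apart. CGB8 belongs to a cluster of near-identical chorionic gonadotropin genes and ABCC6P1 is a copy of ABCC6, so their single values are uncertain.

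RefSeq promoter windows (GRCh38.p14) were found for 24 of the 32 genes, and the 250 bases before each start were searched on both strands for 9 motifs. TRAF1 and MMP1 were among the genes with no window found. The NF-kB consensus was present in 4 of the 24 windows (16.7%), in 5.05% of the 27305 windows of all genes and in 6.42% of the 2274 windows of listed genes. The AP-1 motif TGANTCA was also in 4 (16.7%, against 6.6% and 6.46%), as were the STAT motif TTCNNNGAA (against 6.78% and 4.13%) and the TATA motif TATAAA (against 11.1% and 8.75%). CCAAT was in 7 (29.2%, against 33% and 33.6%) and the p53 half-site in 1, AMPD3 (4.17%, against 5.53% and 5.5%). The CRE motif TGACGTCA (1.77% and 2.73%), the core of the interferon-stimulated response element (3.07% and 2.29%) and the E-box CACGTG (6.49% and 8.8%) were in 0. No test was made of these shares. In 3 genes, TNFRSF9, PRLR and LPAR2, an NF-kB and an AP-1 match stood in the same window. The share of all windows that hold both was not counted. These 3 genes were among the 4 with each motif, so the shares of these motifs are not separate observations. All 3 encode receptors. Their windows are shown 5′ to 3′ as the windows of the receptor genes that hold both matches, with the NF-kB and AP-1 matches in capitals.
TNFRSF9, chr1:7940840-7941089, minus strand: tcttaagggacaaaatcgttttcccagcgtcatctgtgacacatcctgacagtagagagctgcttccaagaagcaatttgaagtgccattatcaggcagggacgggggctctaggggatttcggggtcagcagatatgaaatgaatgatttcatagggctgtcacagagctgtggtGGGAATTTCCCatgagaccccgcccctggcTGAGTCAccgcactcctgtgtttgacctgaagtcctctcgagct
PRLR, chr5:35118123-35118372, minus strand: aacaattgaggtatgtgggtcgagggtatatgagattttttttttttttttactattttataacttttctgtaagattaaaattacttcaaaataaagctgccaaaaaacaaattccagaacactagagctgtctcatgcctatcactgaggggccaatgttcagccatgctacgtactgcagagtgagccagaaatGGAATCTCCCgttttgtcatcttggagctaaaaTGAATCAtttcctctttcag
LPAR2, chr19:19628221-19628470, minus strand: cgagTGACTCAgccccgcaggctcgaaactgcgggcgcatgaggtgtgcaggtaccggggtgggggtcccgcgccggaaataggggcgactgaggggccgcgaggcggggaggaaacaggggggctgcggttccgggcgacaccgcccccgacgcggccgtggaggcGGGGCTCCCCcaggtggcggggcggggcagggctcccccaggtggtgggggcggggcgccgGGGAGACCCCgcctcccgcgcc
In TNFRSF9, the NF-kB match lay 74 bases before the start, on both strands and shifted by 1 base, and the AP-1 match 44 bases before it. In PRLR they lay 53 and 20 bases before the start, which is an internal start of a gene that spans 35048756 to 35230487 of chromosome 5. LPAR2 held 2 NF-kB matches, 83 and 22 bases before the start, and the AP-1 match at 246 bases. A match of this kind describes letters in a window and is not a measured binding site.

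Because the values with DMSO, MI-1061, NCS, and NCS with MI-1061 chose the genes, they are given as a description with no test. The NCS mean was 3.05 to 11.9 times the DMSO mean, with a median of 4.21 over the 32 genes. In 31 genes all 3 NCS libraries lay above all 3 DMSO libraries (58.7% of all listed genes did so), which the choice of genes largely fixes. The exception was COL22A1. The MI-1061 mean was 0.296 to 1.49 times the DMSO mean (median 1.02), and in 2 genes, C15orf48 and SMCO3, all 3 MI-1061 libraries lay below all 3 with DMSO (4.26% of listed genes). With NCS and MI-1061, all 3 libraries lay above those with MI-1061 in 29 genes (60.2% of listed genes), the exceptions being JUP, LPAR2 and MMP1. Just inside the limit of 3 for NCS stood JUP (3.05), MMP1 (3.18) and GCNT3 (3.20), and just outside SNAP91 and CCRL2 (both 2.98) and CYP1A1 (2.96). Just inside the limit of 1.5 for MI-1061 stood LPAR2 (1.49), JUP (1.48) and TRAF1 (1.46), and just outside HRK (1.56), IL32 (1.57) and HSPB3 (1.60). Near the limit of 3 for NCS with MI-1061 over NCS stood BEST3 (2.90), TRAF1 (2.57) and ADGRF4 (2.18) inside, and AOX1 (3.002) and GALNT5 (3.74) outside. When replicate 1, 2 or 3 was left out of every group in turn, 36, 34 and 28 genes met the limits, and 14 of the 32 remained in all 3 cases. After rescaling each library by its median ratio over the listed genes, 34 genes met the limits, of which 14 were among the 32, so which genes are chosen depends on the scaling of the libraries.

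**Figure D1:**
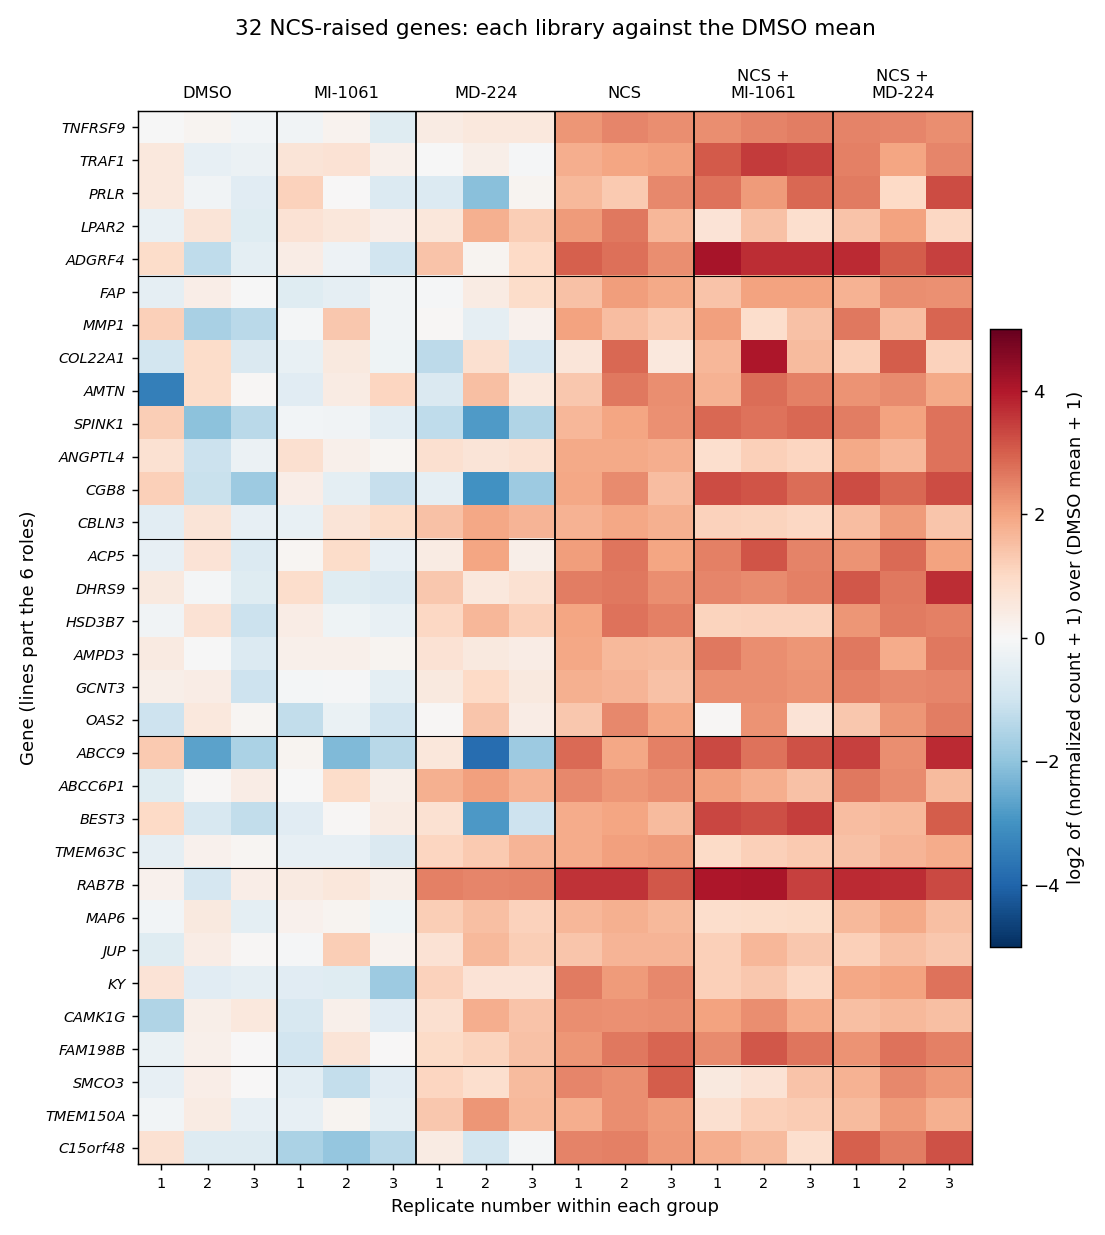
Heat map of the 32 genes (rows, parted by role) in the 18 libraries (columns, 3 per group), coloured by the log2 of normalized count plus 1 over the DMSO mean plus 1. The NCS columns are red in every row by the choice of genes, the MI-1061 columns are mostly near white or blue, and the MD-224 columns, which played no part in the choice, range from 0.287 (SPINK1) to 6.05 (RAB7B) times DMSO on the scale of means.

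The MD-224 libraries were not used to choose the genes. The comparison of NCS with MD-224 against MD-224 therefore asks whether NCS raised the same genes in cells that received the degrader, and it is the test reported here (limma on log2 of normalized count plus 1, all 6 groups in 1 fit, Benjamini-Hochberg adjustment over 3073 genes, calls at an adjusted p under 0.05). All 32 genes passed the filter on low values. Of them 23 rose, 0 fell and 9 did not pass the test, while 39% of all tested genes were called higher and 0.586% lower. The count of unadjusted p-values under 0.05 was 24. The median of the 32 was 3.02-fold (log2 1.59) and that of all tested genes 1.36-fold (log2 0.446). In 24 genes the 3 libraries with NCS and MD-224 lay above the 3 with MD-224, against 48.5% of the listed genes. Median-ratio scaling shifted the log2 median over all tested genes by −0.495, and 14 of the 32 rose under it, among 394 genes higher and 289 lower, in place of 1198 and 18. Without replicate 3 of every group 11 rose. The table as a whole favours genes that rise under the combined treatment, so a high share of rises is also the background.

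**Figure D2:**
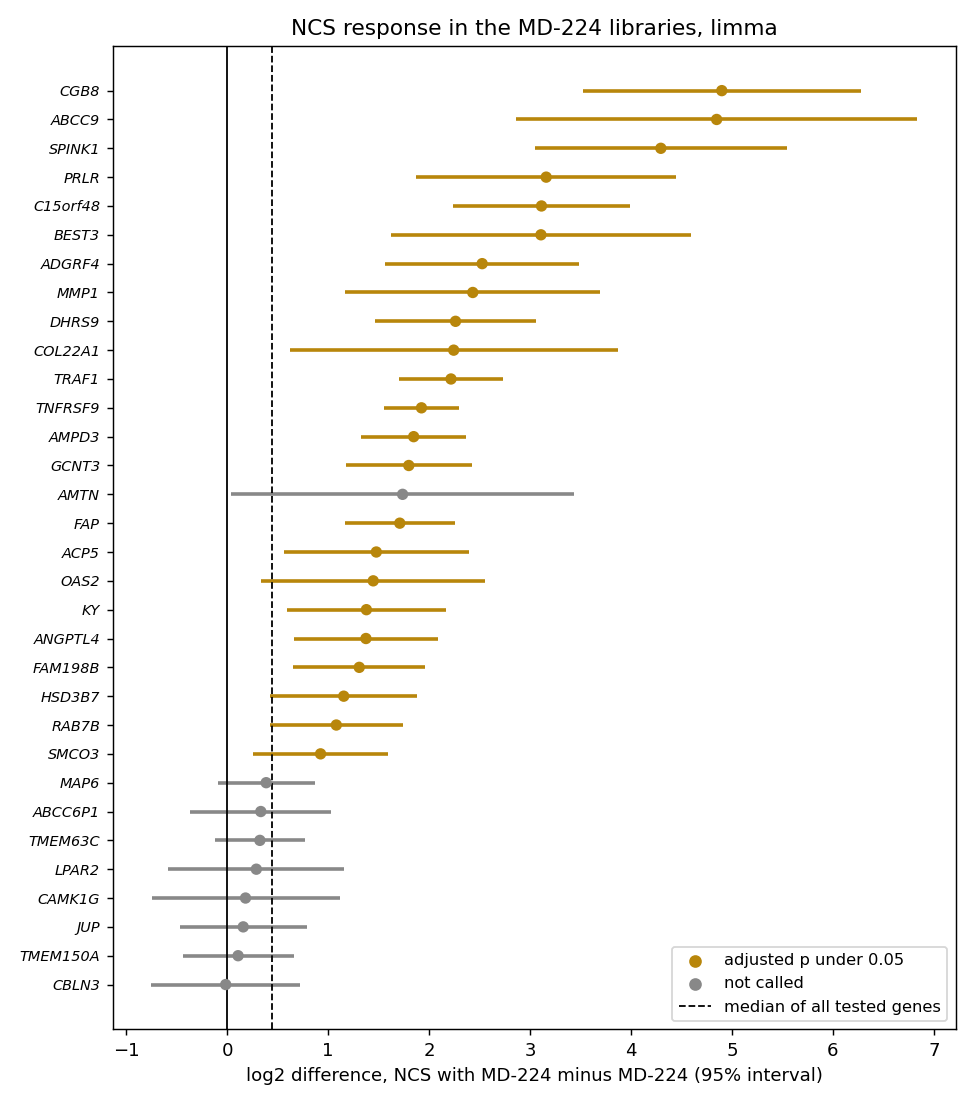
Fitted log2 difference of NCS with MD-224 minus MD-224 for the 32 genes (points) with the 95% confidence interval from limma (bars), sorted, with the median of all tested genes as a dashed line at 0.446. The 23 called genes lie at 0.92 or above, and 8 of the 9 others lie between −0.02 and 0.39, with AMTN (1.74, wide interval) apart from them.

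The 32 genes were grouped by role for this description, with 3 to 8 genes in each role. No count is read as a property of a role. Receptors and their adaptors made up 5 of the genes, of which 4 rose (39% of all tested genes did). TNFRSF9 (chromosome 1, 7915871 to 7940839) encodes 4-1BB, a costimulatory receptor of the TNF receptor family. Its normalized counts were 208, 230 and 187 with DMSO, 185, 234 and 135 with MI-1061, and 956, 1143 and 1055 with NCS. With MD-224 they were 279, 303 and 300.5, and with NCS and MD-224 1159, 1136 and 1059, so these groups were far apart and the libraries of each were close together. The rise was 3.79-fold (log2 1.92, SE 0.177; limma adjusted p = 1.47e-06), the smallest adjusted p among the 32. With NCS and MI-1061 the counts were 1052, 1182 and 1239, which overlapped those with NCS alone.

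TRAF1 (chromosome 9, 120902393 to 120929171) encodes an adaptor that binds receptors of the TNF family, 4-1BB among them, and is a known NF-kB target. It was at 88.35, 109 and 85.9 with MD-224 and at 508, 349 and 482 with NCS and MD-224, a rise of 4.65-fold (log2 2.22, SE 0.246; limma adjusted p = 6.45e-06). With NCS alone it was at 319, 354 and 371, and with NCS and MI-1061 at 740, 1019 and 920, all above every other library, so TRAF1 with both agents was at 2.57 times its NCS mean, while with MI-1061 alone it was at 1.46 times its DMSO mean. PRLR, the prolactin receptor, was at 18.4, 6.44 and 33.5 with MD-224 and at 188, 60.8 and 303 with NCS and MD-224. It rose 8.93-fold (adjusted p = 0.000718), with replicate 2 the lowest in both groups.

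ADGRF4, an adhesion G protein-coupled receptor, rose 5.76-fold (limma adjusted p = 0.000412), from 196, 79.8 and 145 with MD-224 to 957, 597 and 772 with NCS and MD-224. LPAR2, a receptor for lysophosphatidic acid, did not pass (1.22-fold, adjusted p = 0.599). Its counts were 21.8, 51.5 and 35.6 with MD-224 and 40.1, 60.8 and 30.4 with NCS and MD-224, and these overlapped. The 95% interval of its ratio ran from 0.667 to 2.23.

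Of 27 NF-kB pathway genes on the list, 12 were tested and 11 rose in this comparison with 0 falling, with a median of 2.08-fold. Over all tested genes 39% were called higher, with a median of 1.36-fold. With median-ratio scaling 5 of the 12 rose (median 1.47-fold), and 5 without replicate 3 of every group. Over all tested genes 394 of 3071 rose under that scaling, and 475 of 3071 without replicate 3 of every group. TRAF1 was the only gene on the NF-kB list among the 32. BIRC3, an inhibitor of cell death, rose 8.05-fold (limma adjusted p = 2.41e-05), TNFAIP3, which encodes the feedback inhibitor A20, 2.13-fold (0.000307) and NFKBIA, which encodes the inhibitor of NF-kB itself, 1.54-fold (0.015). ICAM1 was at 1.40-fold and did not pass (0.236). No cytokine or chemokine gene on the list was among the 32, but CXCL3 met the limits and was left out by name. Of 48 such genes 15 were tested, CXCL3 among them. Of these 12 rose and 1, CSF1, fell (0.678-fold, adjusted p = 0.0132), with a median of 4.48-fold. With median-ratio scaling 8 of the 15 rose and 1 fell, and without replicate 3 of every group 5 rose and 0 fell. Rises above the share of all tested genes were not particular to these lists. Of 42 p53 targets 35 were tested, none of them among the 32, with 23 higher, 1 lower and a median of 1.60-fold. Under median-ratio scaling 9 of these were higher and 4 lower (median 1.13-fold), and without replicate 3 of every group 16 and 0.

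**Figure D3:**
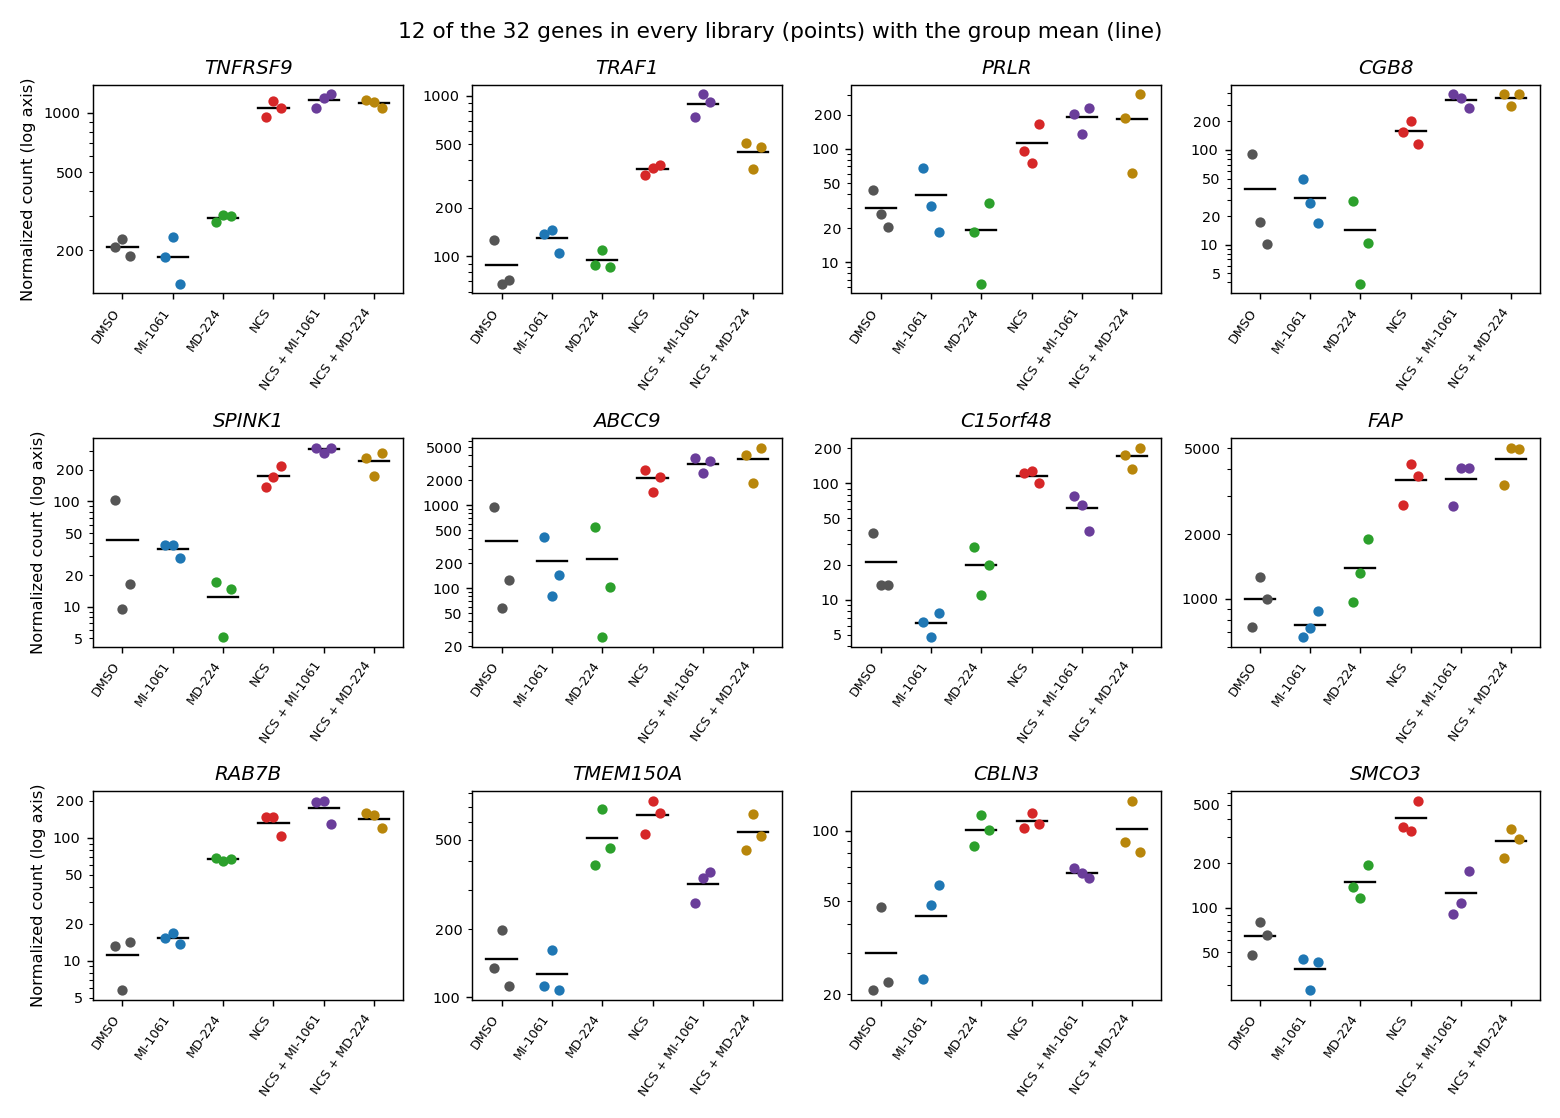
Normalized counts (log axis) of 12 of the 32 genes in each of the 18 libraries (points, replicates 1 to 3 from left to right within a group) with the mean of each group (line). The 3 NCS groups lie above the DMSO and MI-1061 groups for TNFRSF9, TRAF1, CGB8 and SPINK1, whereas TMEM150A and CBLN3 are as high with MD-224 alone as with NCS and MD-224.

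Secreted and matrix proteins numbered 8, of which 6 rose (39% of all tested genes did). CGB8, a beta subunit of chorionic gonadotropin, had the largest rise of the 32, at 29.8-fold (log2 4.90, SE 0.654; limma adjusted p = 3.04e-05). It was at 28.7, 3.86 and 10.5 with MD-224 and at 385, 294 and 385 with NCS and MD-224. With DMSO it was at 89.7, 17.3 and 10.2, so replicate 1 was the highest library in both groups. The log2 value was 5.56 without MD-224 replicate 1 and 4.26 without MD-224 replicate 2.

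SPINK1, a secreted inhibitor of trypsin that is found in several tumours, rose 19.6-fold (log2 4.30, SE 0.592; limma adjusted p = 4.11e-05), from 17.2, 5.15 and 14.7 to 260, 174 and 289. Its DMSO values were 103, 9.61 and 16.4, so DMSO replicate 1 stood apart, under the NCS level of 138 to 216. Without NCS the MD-224 libraries were all below the MI-1061 libraries, which were at 38.6, 38.4 and 29.2.

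FAP, a cell-surface protease of activated fibroblasts, rose 3.27-fold (limma adjusted p = 0.000102) from 962, 1324 and 1896 to 3374, 5048 and 4958. With DMSO it was at 742, 1269 and 998.5 and with NCS at 2737, 4233 and 3723, and with NCS and MI-1061 at 2705, 4058 and 4042, which overlapped those with NCS alone. MMP1, interstitial collagenase, rose 5.40-fold (adjusted p = 0.0043), from 57.4, 40.6 and 64.9 to 353, 166 and 423. Its DMSO libraries were at 128, 17.3 and 21.5, and with NCS and MI-1061 the libraries overlapped those with DMSO. ANGPTL4, an inhibitor of lipoprotein lipase, rose 2.59-fold (0.00413), and its 884 to 1103 with NCS and MI-1061 lay below the 1743 to 1831 with NCS alone.

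COL22A1, a collagen of tissue junctions, was set apart by replicate number. Replicate 2 was the highest library in each of the 6 groups, for example 132, 638 and 124 with NCS and 272, 1416 and 259 with NCS and MI-1061. It rose 4.73-fold in the comparison of NCS with MD-224 against MD-224 (limma adjusted p = 0.0284). AMTN, a mineral-associated protein of tooth enamel, was at 34.4, 162 and 81.7 with MD-224 and at 274, 296 and 215 with NCS and MD-224, with no overlap. Its 3.33-fold difference did not pass (adjusted p = 0.0948), but passed with the replicate number as a block (0.0161) and in a fit of the 2 compared groups alone (0.0231). CBLN3, a cerebellin-family secreted protein, was at 86, 116 and 100 with MD-224 and at 89.6, 134 and 81 with NCS and MD-224 (0.989-fold, adjusted p = 0.978).

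Of 87 extracellular matrix and protease genes on the list, 35 were tested, with 22 higher and 1 lower and a median of 1.76-fold. Over all tested genes 39% were called higher, with a median of 1.36-fold. Under median-ratio scaling 13 of the 35 were higher and 3 lower, where 394 of all 3071 tested genes were higher. Without replicate 3 of every group 13 were higher and 0 lower, where 475 of all 3071 were higher. MMP1 was the only one of the 32 genes on this list.

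All 6 genes of enzymes rose, beside 23 of the 32 and 39% of all tested genes. AMPD3, which deaminates AMP, was at 603.5, 512 and 474 with MD-224 and at 2263, 1341 and 2254 with NCS and MD-224, with no overlap. It rose 3.60-fold (limma adjusted p = 2.95e-05) and GCNT3, a mucin-type glycosyltransferase, 3.48-fold (0.000198). GCNT3 was at 116, 164 and 114 with MD-224 and at 478, 438 and 442.5 with NCS and MD-224, and its NCS libraries were at 286, 268 and 230, below both groups with NCS and a compound. DHRS9, a retinol dehydrogenase, rose 4.79-fold (0.000234), from 151.5, 86.3 and 102 to 523, 372 and 767.5. ACP5, tartrate-resistant acid phosphatase of osteoclasts and macrophages, rose 2.78-fold (0.0128). Its replicate 2 was the highest library in each of the 6 groups, 615, 1836 and 571 with MD-224 and 2233, 3290 and 1894 with NCS and MD-224.

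HSD3B7, an enzyme of bile acid synthesis, rose 2.22-fold (limma adjusted p = 0.014). It was at 342, 575 and 511 with NCS and at 189, 198 and 196 with NCS and MI-1061, so in the presence of the inhibitor all 3 libraries were under the NCS level. OAS2, an interferon-induced sensor of double-stranded RNA, rose 2.72-fold (0.0366) with overlapping libraries, at 119, 300 and 150 with MD-224 and 297, 538 and 684 with NCS and MD-224. Of 68 interferon response and antigen presentation genes 15 were tested, and 5 rose with 0 falling (median 1.26-fold), against 39% higher and a median of 1.36-fold over all tested genes, so the list did not exceed the background. Without replicate 3 of every group 1 rose and 0 fell, where 475 of all 3071 tested genes rose. With median-ratio scaling 1 rose and 1 fell, where 394 of all 3071 rose. The median of the list was then below no change (0.894-fold).

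Channels and transporters numbered 4. ABCC9, the sulfonylurea receptor subunit of a potassium channel, rose 28.8-fold (log2 4.85, SE 0.943; limma adjusted p = 0.000747). It was at 551, 25.8 and 105 with MD-224, at 941, 57.7 and 125 with DMSO, and at 410, 80.4 and 144 with MI-1061, so replicate 1 was the highest in each group without NCS, while with NCS and MD-224 it was at 4037, 1869 and 4936. The log2 value was 5.97 without MD-224 replicate 1 and 3.79 without MD-224 replicate 2. BEST3, a chloride channel of the bestrophin family, rose 8.62-fold (adjusted p = 0.00245), from 27.5, 1.29 and 7.33 to 48.5, 50.4 and 136, with a log2 value of 3.11 that was 4.01 without MD-224 replicate 1 and 2.19 without MD-224 replicate 2. TMEM63C (log2 0.32, adjusted p = 0.232), an osmosensitive channel protein, and ABCC6P1 (1.26-fold, 0.444) did not pass.

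Among the 6 genes of traffic, cytoskeleton, junctions and kinases 3 rose (39% of all tested genes did). RAB7B, a small GTPase of late endosomes, had the largest ratio of NCS to DMSO in the whole group, from 13.1, 5.77 and 14.3 to 147, 147 and 103. With MI-1061 it was at 15.4, 16.8 and 13.8, and with MD-224 at 68.8, 65 and 67, between the levels with DMSO and NCS and apart from both. The further rise with NCS and MD-224, to 158, 153 and 120, was 2.11-fold (limma adjusted p = 0.0111), and did not pass with median-ratio scaling (log2 0.59, adjusted p = 0.187). KY, a muscle protein with a transglutaminase-like domain, rose 2.60-fold (0.00779) and FAM198B, a Golgi-associated kinase-like protein now named GASK1B, 2.48-fold (0.00337). JUP, the junction protein plakoglobin, MAP6, which stabilises microtubules, and CAMK1G, a calcium/calmodulin-dependent kinase, did not pass (1.12-fold, 1.31-fold and 1.13-fold). Of 79 genes on the list of RAS and small GTPase regulators, 21 were tested and 9 rose, RAB7B among them. This share was near the 39% of all tested genes. Under median-ratio scaling 5 rose and 1 fell, where 394 of all 3071 tested genes rose. Without replicate 3 of every group 5 rose, where 475 of all 3071 did.

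The 3 remaining genes encode other membrane and mitochondrial proteins. C15orf48, a small protein of respiratory complex IV that is induced in inflammation, was at 28.7, 11 and 19.9 with MD-224 and at 176, 132 and 202 with NCS and MD-224, a rise of 8.65-fold (log2 3.11, SE 0.418; limma adjusted p = 3.19e-05). With MI-1061 it was at 6.43, 4.80 and 7.69, below the 37.2, 13.5 and 13.3 with DMSO, and with NCS and MI-1061 at 78.6, 65.6 and 38.7, below the 123, 127 and 100 with NCS. SMCO3, a single-pass membrane protein, rose 1.90-fold (0.0278). It was at 353, 331 and 532 with NCS and at 90.5, 108 and 177 with NCS and MI-1061, the lowest ratio of those groups among the 32 (0.309). TMEM150A, a membrane protein linked to phosphoinositide kinase, did not pass (1.08-fold, adjusted p = 0.765).

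Of the 23 calls, 11 stood under each of the 18 alternative settings (ADGRF4, AMPD3, C15orf48, CGB8, DHRS9, FAP, GCNT3, PRLR, SPINK1, TNFRSF9 and TRAF1). This concerns the test and not the choice of genes. AMPD3, CGB8, GCNT3, PRLR, SPINK1 and TRAF1 missed the limits of the choice at least once when 1 replicate number was left out of every group. Leaving out 1 library ended 5 of the other 12 calls. By limma, ACP5 had an adjusted p of 0.056 without MD-224 replicate 1, 0.0713 without MD-224 replicate 3 and 0.0541 without replicate 2 of NCS with MD-224. COL22A1 had 0.107, 0.0894 and 0.133 without the same libraries, and a log2 of 2.24 that was 1.62 in the last case and 2.87 without MD-224 replicate 2. OAS2 had 0.129, 0.104 and 0.0883 without the same libraries and 0.125 without replicate 3 of NCS with MD-224. HSD3B7 had 0.0509 without MD-224 replicate 1. SMCO3 had 0.0674 and 0.0984 without MD-224 replicates 1 and 2, and 0.101 and 0.0667 without replicates 2 and 3 of NCS with MD-224. These fits without 1 library did not use the replicate number. In the limma fit of all libraries with the replicate number as a block, the adjusted p was 8.99e-06 for ACP5, 9.18e-06 for COL22A1 and 0.00601 for HSD3B7. With median-ratio scaling the calls of ACP5, ANGPTL4, COL22A1, FAM198B, HSD3B7, KY, OAS2, RAB7B and SMCO3 ended, with adjusted p-values of 0.061 to 0.389 by limma. Without replicate 3 of every group the calls of ABCC9, ACP5, ANGPTL4, BEST3, COL22A1, FAM198B, HSD3B7, KY, MMP1, OAS2, RAB7B and SMCO3 ended, with adjusted p-values of 0.0606 to 0.349 by limma. The log2 of PRLR (3.16) was 2.56 without MD-224 replicate 2 and 3.81 without replicate 2 of NCS with MD-224.

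With the degrader and without NCS, the mean ranged from 0.287 to 6.05 times the DMSO mean over the 32 genes. The MD-224 mean was at least 1.5 times the DMSO mean in 20 of the 32 genes (42.5% of the listed genes) and at most 1/1.5 of it in 4 (4.78%). These values share the DMSO libraries by which the genes were chosen, so they are given with no test. In 15 genes all 3 MD-224 libraries lay above all 3 with DMSO, a share near the 42.3% of listed genes, and in none below. TMEM150A was at 135, 198 and 113 with DMSO, at 112, 162 and 108 with MI-1061, and at 384, 681 and 461 with MD-224. TMEM63C was at 138, 219 and 201 with DMSO, 142, 140 and 112 with MI-1061 and 391, 458.5 and 605 with MD-224. CBLN3 was at 20.8, 47.1 and 22.5 with DMSO and at 86, 116 and 100 with MD-224. In each of these 3 genes all 3 MD-224 libraries lay above all 3 with DMSO and above all 3 with MI-1061.

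Of the 20 genes with an MD-224 mean of at least 1.5 times DMSO, 11 rose further with NCS and 9 did not pass. All 12 others rose. The MD-224 libraries enter both measures with opposite sign, so this count is a description. At the other end, SPINK1, CGB8, ABCC9 and PRLR had MD-224 means of 0.287, 0.367, 0.606 and 0.64 times DMSO, with overlapping libraries in all 4, and had the 4 largest fitted rises in the MD-224 libraries.

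**Figure D4:**
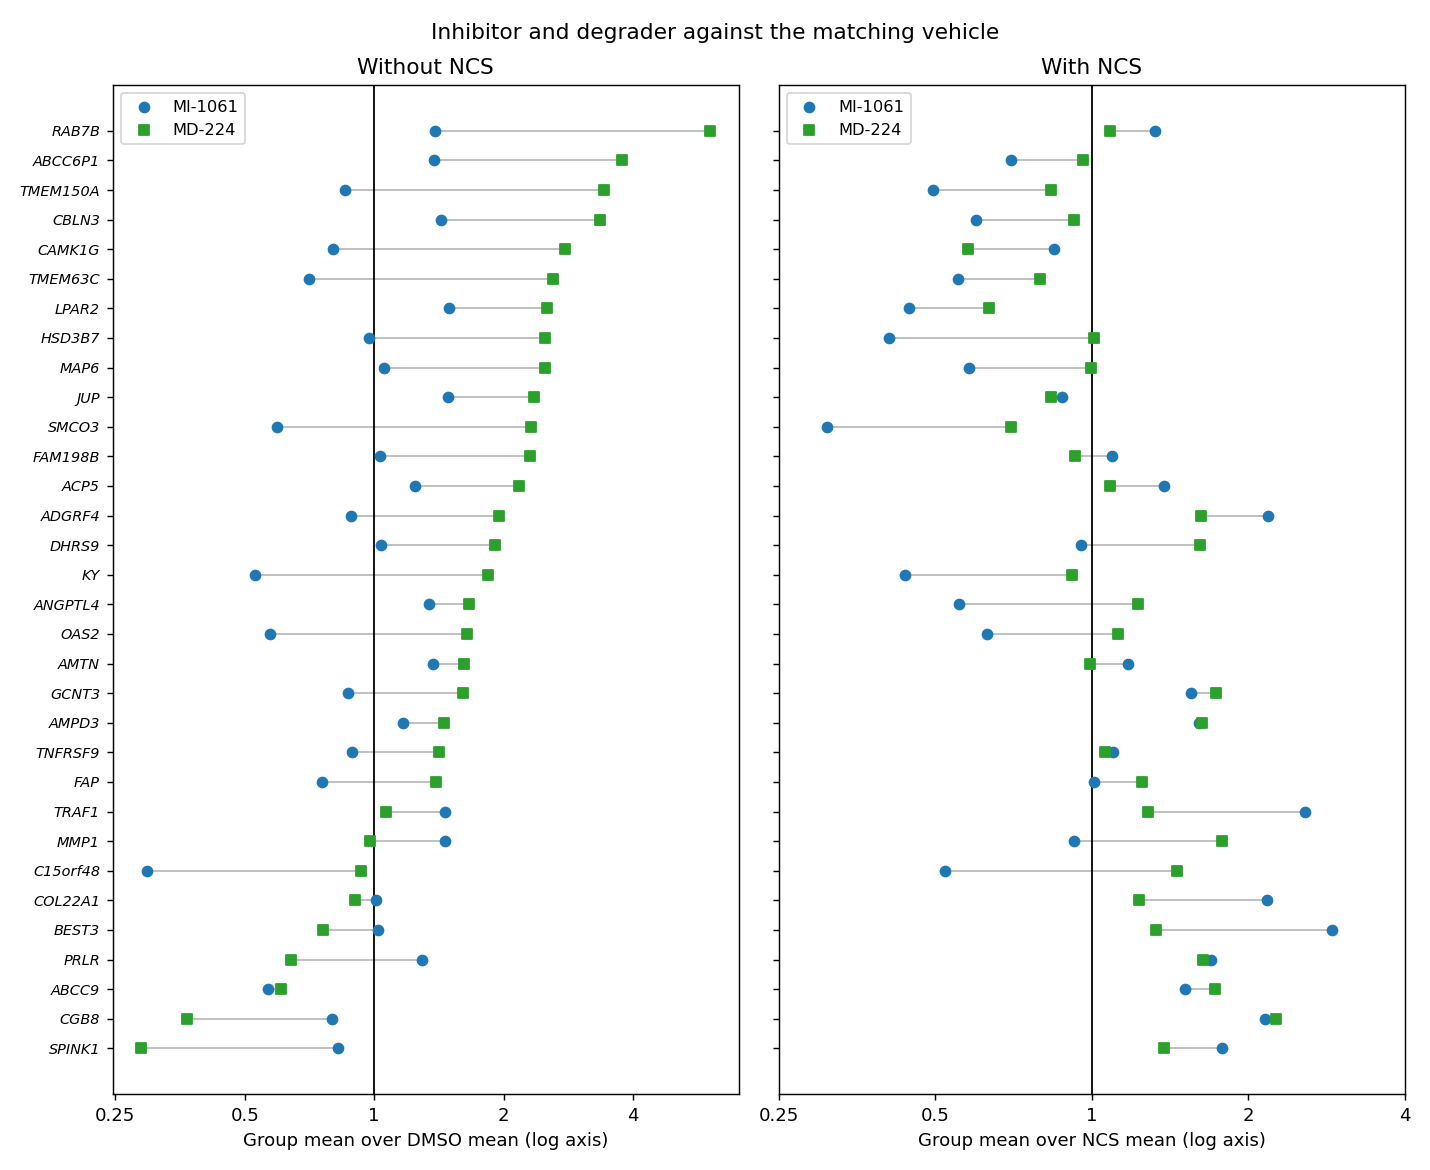
Ratio of group means for MI-1061 (circles) and MD-224 (squares) against the vehicle group, without NCS (left, over DMSO) and with NCS (right, over NCS), on a log axis, for the 32 genes sorted by the left MD-224 ratio. On the left the squares reach from 0.287 to 6.05 while the choice of genes keeps the circles under 1.5, and on the right the circles reach down to 0.309 (SMCO3) and the squares to 0.579 (CAMK1G).

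The compounds were given at the same dose and for the same time. Without NCS, the MD-224 mean was above the MI-1061 mean in 25 of the 32 genes, and all 3 MD-224 libraries lay above all 3 MI-1061 libraries in 17 (12.2% of listed genes). The limit on the MI-1061 mean favours this direction, so nothing is read from the count. On top of NCS, the ratio of means for MI-1061 was 0.309 to 2.90 with a median of 0.983, and for MD-224 0.579 to 2.26 with a median of 1.11. With MI-1061 all 3 libraries lay below all 3 with NCS alone in 11 genes (1.53% of listed genes) and above them in 7 (78.7%). With MD-224 the corresponding numbers were 2 (1.04%) and 4 (40.8%). Both share the NCS libraries that were chosen to be high. The 11 genes were ABCC6P1, ANGPTL4, C15orf48, CBLN3, HSD3B7, KY, LPAR2, MAP6, SMCO3, TMEM150A and TMEM63C. The 7 were ADGRF4, AMPD3, BEST3, CGB8, GCNT3, SPINK1 and TRAF1. Between the groups with NCS and a compound, all 3 MD-224 libraries lay above all 3 MI-1061 libraries in 11 genes (1.69% of listed genes) and below them in 4 (67.7%), BEST3, CAMK1G, SPINK1 and TRAF1. These values were not tested, since the limit on NCS with MI-1061 chose the genes.

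MAP6 shows the first pattern with little spread. It was at 329, 354 and 318 with NCS, at 189, 194 and 199 with NCS and MI-1061, and at 321, 384 and 294 with NCS and MD-224, so only the inhibitor group was apart. KY was at 218, 155 and 187 with NCS, 80.9, 90.9 and 73.3 with NCS and MI-1061, and 135, 145 and 233 with NCS and MD-224. BEST3 shows the second, at 60.8, 65.5 and 49.7 with NCS and 169, 156 and 187 with NCS and MI-1061. Among the 9 genes that did not pass in the test of the MD-224 libraries, 8 had a lower mean with NCS and MI-1061 than with NCS, and among the 23 that rose 8 did. Over all listed genes the median ratio of these 2 means was 1.97. Both groups chose the genes, so nothing is read from these counts.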

How the data were processed

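Poly(A) RNA of SJSA-1 cells was measured in 18 libraries, 3 in each of 6 groups named by the sample titles. The authors deposited normalized counts (a signal: read counts divided by 1 size factor per library) for 3074 selected genes. Listed in the submitters' processing notes, without roles, are DESeq2 2.11.40.6, featureCounts 1.6.3, HISAT2 2.0.5.2 and the build GRCh38. In 13 libraries 100% of the deposited signal values of up to 2000 reads were whole multiples of the value of 1 read (tolerance 0.01 reads), with 4490870 to 10535849 reads over the listed genes. The other 5 libraries (NCS replicate 3, the 3 with NCS and MI-1061, and replicate 2 of NCS with MD-224) entered no count test.

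Values were used as log2(value + 1), for genes that reached 10 in 3 or more libraries, in limma 3.58.1 (R 4.3.3) with a trended variance, two-sided, and the estimate was turned back into a fold, on the log2(value + 1) scale. The added 1 lowers the fold of low genes, but where libraries spread widely this fold can exceed the ratio of group means (ABCC9 28.8 against 15.9, BEST3 8.62 against 6.49). Only NCS with MD-224 against MD-224 was tested, because the other contrasts use libraries that chose the genes. The genes and the gene lists were chosen with earlier results of these data known. Named genes were, among the members, the 12 largest NCS ratios, the 12 largest called rises without overlap, the 8 lowest differences, the 12 highest NCS means, the 3 nearest to each limit on both sides, and all on one of 20 lists; this left out AMTN, which is named too. Like-numbered libraries of these groups deviated together (residual correlations across genes 0.203, 0.38 and 0.135), so a pairing by number was read from the data alone. The reported test did not use this pairing. A replicate block entered only as an alternative. On simulated data for this comparison (3074 genes, 200 changed) 86.6% of the 4-fold, 58.2% of the 2-fold and 30.3% of the 1.5-fold changes were called, beside 5 false calls. There all changes were rises, no shift was common to all genes, and libraries were drawn independently of replicate number. The measured data differ in these points and had far more called genes, so the simulated rates need not hold for them. Alternatives were other pseudocounts, filters, scaling, the replicate block, fewer groups, left-out libraries, and, on the reads of 5 libraries, edgeR 4.0.16 and DESeq2 1.42.0. Promoter windows and coordinates were from RefSeq (GRCh38.p14), with 30 genes matched by symbol and 2 by synonym, and exon overlaps from GENCODE. Python 3.11.15 and matplotlib 3.10.9 drew the figures.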

Additional observations from a re-analysis of the deposited data

Results flagged for a closer look

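In CAMK1G and TMEM63C every MD-224 library lay on one side of the matching vehicle libraries without NCS and on the other side with NCS. The CAMK1G mean with MD-224 was 2.78 times that with DMSO, and the mean with NCS and MD-224 was 0.579 times that with NCS. For TMEM63C these ratios were 2.605 and 0.794. The CAMK1G libraries were at 4.38, 17.3 and 20.5 with DMSO, 25.2, 52.2 and 39.8 with MD-224, 73.6, 72.6 and 74.6 with NCS, and 41.1, 45.2 and 41.5 with NCS and MD-224. The difference between the responses was not tested, because the DMSO and NCS libraries chose these genes.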

How the results depend on the processing

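With median-ratio scaling 394 genes were higher and 289 lower in NCS with MD-224 against MD-224, in place of 1198 and 18, and 14 of the 32 rose in place of 23. Under a replicate block 40 genes were lower and AMTN also passed; the block changed no other call of the 32. A fit of the 2 compared groups alone called 11 genes lower, in which AMTN passed too. EdgeR on the recovered reads of 5 libraries, chosen after seeing the data, called 798 genes higher and 19 of the 23 that limma called, and DESeq2 20 of them. Leaving out libraries gave 475 to 1111 genes higher, 1 to 25 lower and 11 to 23 of the 32, and 28 to 36 genes met the limits. Without replicate 1, 2 or 3 of every group, 871, 1087 and 475 genes and 18, 22 and 11 of the 32 were higher. The causes were not tested. With an NCS limit of 2 in place of 3, 132 genes met the limits, with 4, 19 genes, and with an MI-1061 limit of 2, 53 genes. The count tests planned on all 6 libraries were not run, because reads were recovered in 5. Low reads without NCS limit BEST3, CGB8 and SPINK1, and other genes as well. With DMSO, RAB7B had 12, 6 and 14 reads, CAMK1G 4, 18 and 20, and LPAR2 10, 24 and 9. C15orf48 had 5, 4 and 5 reads with MI-1061, AMTN 4 in DMSO replicate 1 and PRLR 10 in MD-224 replicate 2.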
